A study of Mus musculus with 7 samples.

Results

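The Hox genes are the homeobox genes of the 4 mammalian Hox clusters, and they were chosen here as the protein-coding genes with a symbol made of Hox, the letter of the cluster and a number. The annotation holds 39 of them, and 38 have a row among the 38124 genes of the count table. *Hoxd4* has no row under its annotated identifier and was not analysed here. Cluster A lies on chromosome 6 from 52155590 to 52260880 with 11 genes, cluster B on chromosome 11 from 96194316 to 96368256 with 10, and cluster C on chromosome 15 from 102921103 to 103036852 with 9 (GRCm38, also called mm10). Cluster D lies on chromosome 2 from 74668310 to 74765142, and 8 of its 9 genes could be counted.

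RNA was sequenced from cells with high red fluorescence (High RFP) that were sorted from E15.5 mouse neocortex of the Tis21-CreERT2 line, 48 hr after *in utero* electroporation at E13.5. The embryos of both groups were heterozygous for a CreERT2 cassette in place of the first exon of *Tis21*, received tamoxifen, and carried plasmids from which Cre removes a floxed GFP cassette so that nuclear RFP is made. The *Tis21* locus drives Cre in progenitors that give rise to basal progenitors (BPs) and in BPs themselves, so the sorted cells comprise BPs and their progeny rather than 1 cell type. The control construct (3 libraries, replicates 1, 2 and 4) expresses RFP alone and the conditional Sox9 expression construct (4 libraries, replicates 1 to 4) expresses RFP with Sox9. According to the methods, cortices of several embryos were pooled for each sort. *Sox9* itself had 362, 1026 and 668 counts in the controls and 370, 435, 277 and 177 with the Sox9 label, a log2 fold change of -0.68 (SE 0.25, adjusted p = 0.0493 by edgeR's quasi-likelihood test), so the groups are called by their labels.

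Hox genes encode homeodomain transcription factors that give cells their position along the body axis. Within a cluster the genes stand in the order in which they are used from head to tail: paralogs with low numbers pattern the hindbrain, and those with high numbers the lower trunk, limbs and genital region. Their front limit of expression lies in the hindbrain, so in the forebrain, neocortex included, they are kept silent by Polycomb proteins. Reads on them in cortical cells are therefore reads from loci that are normally shut.

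Between 4429704 and 10520214 counts were obtained from the Sox9-labelled libraries and between 10465562 and 12907778 from the controls. Although 3 of the 4 Sox9-labelled libraries were less deep than every control, 24219 to 27370 genes had a count in that group and 23387 to 23791 in the controls. The cells carried the signature of dorsal forebrain in both groups. The 10 genes of dorsal forebrain identity, among them *Emx1*, *Lhx2* and *Neurod6*, had a count in every library, and their sum was 5003 to 5932 CPM (counts brought to one library size with TMM factors) in the controls and 3995 to 4502 in the Sox9-labelled libraries. Only *Pax6* passed the threshold among them, with a log2 fold change of -1.15 (SE 0.23, adjusted p = 0.0031 by edgeR's quasi-likelihood test). The median log2 fold change of the 10 genes was -0.38, and only *Fezf2* (0.05) and *Bcl11b* (0.38) had a positive value. *Neurod6*, which made up most of the sums, had -0.36 (SE 0.11, adjusted p = 0.0206 by the same test).

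All 38 Hox genes together received 1203 counts over the 7 libraries. The control libraries had 71, 74 and 101 Hox counts, and the Sox9-labelled libraries had 277, 261, 306 and 113. Even the library with the fewest counts in all, Sox9 replicate 4, thus had more Hox counts than any control. As CPM the sums were 6.79, 6.43 and 10.3 in the controls and 38.05, 24.7, 34.2 and 23.7 in the Sox9-labelled libraries, with means of 7.83 ± 2.12 (SD, n = 3) and 30.2 ± 7.08 (SD, n = 4). The groups did not overlap, and the ratio of the means was 3.85. In RNA from pools of cells, more cells with Hox transcripts and more Hox RNA per cell cannot be told apart. Per kilobase of exon, Hox genes stood at a mean of 0.0784 CPM in the controls and 0.302 in the Sox9-labelled libraries, whereas the dorsal forebrain genes stood at 105.8 and 82.7 CPM. The mean Hox signal per kilobase thus remained far under that of this gene list in either group. *Neurod6* alone had means of 4486 and 3492 CPM, within mean list sums of 5404 and 4222 CPM. In the Sox9-labelled libraries *Hoxb1* had a mean of 7.14 CPM, above the 4.58 CPM of *Emx2* but under the means of the list's other genes.

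Every Hox gene had a count in some library, and 16 had a count in all 7. The controls held at least 1 count for 26, 29 and 29 of the 38 genes, and the Sox9-labelled libraries for 35, 33, 36 and 29. The groups met at 29, the value of control replicates 2 and 4 and of Sox9 replicate 4, the library with the fewest counts. When each library was drawn down without replacement to the smallest library total, the expected number of genes with a count was 17.5, 16.8 and 21.4 in the controls and 31.97, 26.0, 31.0 and 29.0 in the Sox9-labelled libraries. At this common library total the groups did not overlap. With more than 3 counts required, the means were 9.0 genes in the controls and 16.75 in the Sox9-labelled libraries.

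**Figure D1:**
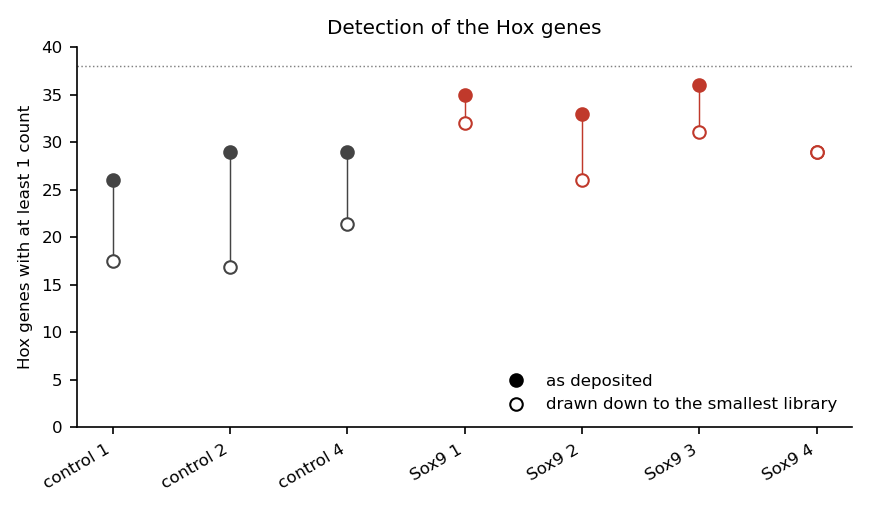
Number of the 38 Hox genes with at least 1 count (y axis) in each library (x axis), as deposited (filled) and as an expectation once each library is drawn down to the smallest library total (open), with controls in grey, Sox9-labelled libraries in red and a dotted line at 38. At the smallest library total, the 3 controls lie between 16.8 and 21.4 and the 4 Sox9-labelled libraries between 26.0 and 31.97.

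Single Hox genes had few counts. No Hox gene had more than 9 counts in a control library, and 19 had at most 3 in each of them. *Hoxb5*, *Hoxc4* and *Hoxc5* had none in any control. In the Sox9-labelled libraries the highest value was 74 counts, for *Hoxb1* in replicate 2, and 13 genes exceeded 9 counts in at least 1 of these libraries. The other 25 genes had at most 9 counts in every library of either group. Counts this low carry a large counting error, and since the reads carry no molecular identifiers the intervals given here cover counting error only.

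**Figure D2:**
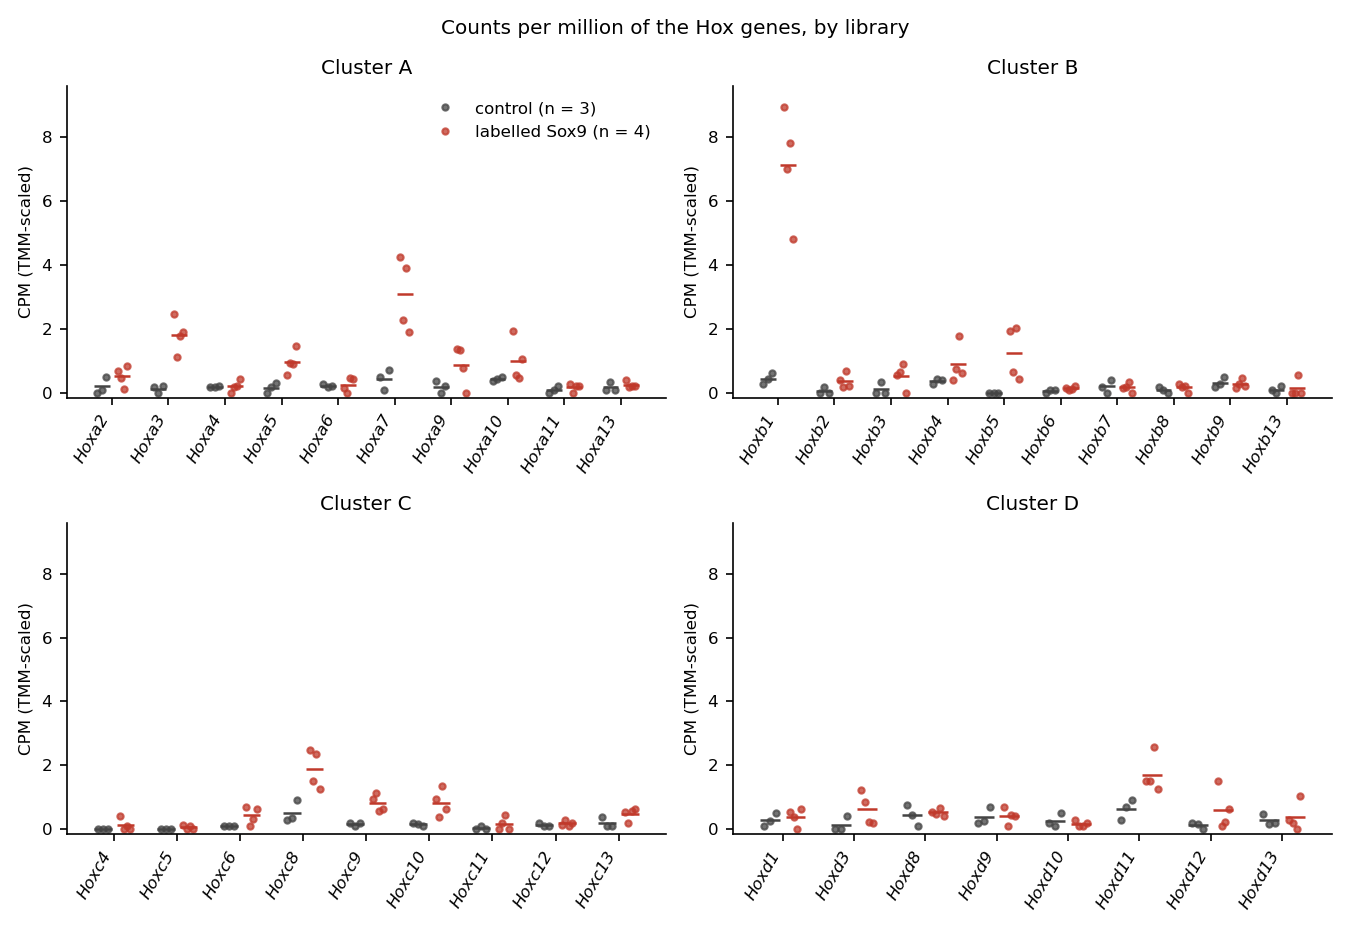
CPM (y axis) of the Hox genes (x axis, in paralog order; 1 gene of cluster A is not shown) in every library, in 1 panel per cluster, with controls in grey (n = 3), Sox9-labelled libraries in red (n = 4) and horizontal bars at the group means. *Hoxb1* stands above all other Hox genes in the Sox9-labelled libraries, at 4.82 to 8.93 CPM, while its controls lie between 0.287 and 0.610.

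*Hoxb1*, the most anterior gene of cluster B, which specifies the fourth segment of the hindbrain, had the most counts of all Hox genes. It lies on chromosome 11 from 96365752 to 96368256 on the forward strand and shares no exonic base with another annotated gene. The controls had 3, 5 and 6 counts of it and the Sox9-labelled libraries had 65, 74, 70 and 23. All 4 of the latter were above all controls, with means of 0.444 ± 0.162 CPM (SD, n = 3) and 7.14 ± 1.74 CPM (SD, n = 4). *Hoxb1* rose by a log2 fold change of 3.98 (SE 0.43, adjusted p = 5.7e-05 by edgeR's quasi-likelihood test), and with cyclic loess normalization and limma by a smaller 2.65 (SE 0.34, adjusted p = 0.000525). Pooled over libraries and set against their sizes, its counts gave a ratio of 16.7 (exact 95% interval 9.75 to 31.0). Among the 16522 genes that passed the filter on low counts, its p-value ranked at 46 and its log2 fold change at 87. Among the 2023 genes with 128 to 246 counts over all libraries, 0.544% had as large a log2 fold change in the fit without a filter.

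Hoxb1 protein acts on its own gene together with Pbx proteins, through sites in which a Pbx and a Hox protein bind side by side. The sequence before the annotated start of *Hoxb1* is shown because it belongs to the Hox gene that moved most in the test. The RefSeq promoter table (GRCm38.p6) was searched over 250 bases before each start on both strands for TGATNNAT, the core of Pbx-Hox sites, which capitals mark in the sequence below (chr11:96365508-96365751, forward strand).

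Hoxb1: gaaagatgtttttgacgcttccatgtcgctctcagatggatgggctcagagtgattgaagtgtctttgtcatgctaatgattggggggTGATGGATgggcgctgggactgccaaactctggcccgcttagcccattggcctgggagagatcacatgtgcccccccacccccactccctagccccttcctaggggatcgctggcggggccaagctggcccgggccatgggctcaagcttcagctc

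The match TGATGGAT begins 156 bases before the annotated start of *Hoxb1*. The table holds 23 promoters of 21 Hox genes, and 4 of these promoters (17.4%) have a match to TGATNNAT, those of *Hoxa2*, *Hoxb1*, *Hoxb8* and *Hoxd11*, compared with 7.68% of all 32851 promoters. No Hox promoter holds AACAAT or ACAATG, short forms of the motif of Sox proteins that overlap each other, while 9.42% and 10.7% of all promoters do. The windows of *Hoxa3* and *Hoxa7* hold none of the 3 motifs. Hox promoters have a median of 13 CpG dinucleotides (from 2 to 35) in these 250 bases and all promoters a median of 6, and the window of *Hoxb1* has 7. These matches describe the letters only, and no binding was measured.

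Of the 38 Hox genes, 5 passed the filter and were tested, and 33 did not. All 5 had a positive log2 fold change. *Hoxb1*, *Hoxa3* and *Hoxa7* rose at an adjusted p under 0.01 and no Hox gene fell, whereas 11.3% of all genes tested rose and 3.43% fell. Among the 3275 genes tested with an average log2 CPM under 1, the range in which *Hoxa3*, *Hoxc8* and *Hoxd11* lie, 20.6% rose and 0.0916% fell. At an adjusted p under 0.05 all 5 tested Hox genes were higher, compared with 21.9% of all genes tested, but *Hoxd11* was over 0.05 in 12 of 15 alternative fits and *Hoxc8* in 4 of 15. A Hox gene that passed the filter did so mainly through its counts in the Sox9-labelled libraries, so these 5 do not stand for the 38.

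*Hoxa3*, a paralog of group 3 needed for the thymus, the parathyroid and the carotid arteries, had 2, 0 and 2 counts in the controls and 18, 12, 16 and 9 in the Sox9-labelled libraries. The groups did not overlap, and the log2 fold change was 3.69 (SE 0.71, adjusted p = 0.0022 by edgeR's quasi-likelihood test). With 4 control counts in all, the pooled ratio of 13.8 has an exact 95% interval of 5.11 to 52.6. The gene spans 44275 bases on chromosome 6 (52169062 to 52213336, reverse strand), holds *Hoxa4*, *Hoxa5* and *Hoxa6* within that span, and shares 27.1% of its 6014 exonic bases with other genes, some of them antisense. Whether reads were assigned by strand is not given in the sources used here, so counts of *Hoxa3* and of these genes may not be separable.

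*Hoxa7*, a trunk gene of cluster A, had 5, 1 and 7 counts in the controls and 31, 24, 35 and 9 in the Sox9-labelled libraries. Its lowest value with the Sox9 label, 1.89 CPM in replicate 4, lay above the highest control value of 0.712 CPM. It rose by a log2 fold change of 2.86 (SE 0.59, adjusted p = 0.0033 by edgeR's quasi-likelihood test), with a pooled ratio of 7.67 (exact 95% interval 4.29 to 14.9). *Hoxa7* shares 20.4% of its exonic bases with the antisense gene *Hoxaas3*. Without control replicate 2, which had the fewest counts of both genes, the adjusted p-values of *Hoxa3* and *Hoxa7* were 0.0105 and 0.0125 and neither passed the threshold. *Hoxa7* also missed it without Sox9 replicate 3 (adjusted p = 0.0101). With cyclic loess normalization and limma the log2 fold changes of *Hoxa3* and *Hoxa7* were 0.99 and 1.23, and neither gene passed (adjusted p = 0.131 and 0.0799).

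*Hoxc8*, which patterns the thoracic level, had the most counts of cluster C, with 3, 4 and 9 in the controls and 18, 16, 21 and 6 in the Sox9-labelled libraries. Its log2 fold change was 1.88 (SE 0.55, adjusted p = 0.0183 by edgeR's quasi-likelihood test). *Hoxd11*, which shapes the forearm and the kidney, led cluster D, with 3, 8 and 9 counts against 11, 16, 23 and 6, and a log2 fold change of 1.44 (SE 0.53, adjusted p = 0.0473 by the same test). The CPM of neither gene overlapped between the groups, although the replicate 4 counts of both lay within the range of the control counts, in a library with fewer counts in all. Neither gene passed the threshold of 0.01. With cyclic loess normalization and limma, the log2 fold change of *Hoxc8* was 0.26 (adjusted p = 0.721) and that of *Hoxd11* was -0.078 (adjusted p = 0.929). Without control replicate 4, that of *Hoxc8* was 2.56 (adjusted p = 0.0130 by edgeR's quasi-likelihood test).

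*Hoxb5*, a paralog of group 5 that takes part in forming the gut's nerve cells, had no count in any control and 14, 7, 18 and 2 in the Sox9-labelled libraries. Against a floor of 3 counts in each control library it was at least 4.41-fold higher in CPM. The filter removed it from the test. *Hoxa10*, a gene of limb and reproductive tract, had 4, 5 and 5 counts in the controls and 14, 6, 4 and 5 in the Sox9-labelled libraries, so that the groups overlapped also in CPM. *Hoxc4* and *Hoxc5*, also without a control count, had 4 and 2 counts in all Sox9-labelled libraries together, which is too few for a ratio.

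Over all 38 genes, the mean CPM was higher in the Sox9-labelled libraries for 35. Of all genes with 2 to 246 counts in all, 82.3% likewise had a higher mean CPM there. In the fit without a filter, 32 of the 38 genes (84.2%) had a positive log2 fold change, with a median of 1.29, or 1.18 with *Hoxb5* at its bound and the other 3 genes without control counts left out. Among the 19417 genes with as many counts in all as a Hox gene (2 to 246), 79.7% had a positive value and the median was 1.27, while over all 32483 genes with a count the median was 0.51. In that fit 4 Hox genes rose, *Hoxb1*, *Hoxa3*, *Hoxa7* and *Hoxb5*, and none fell, beside 10.7% and 0.232% of the genes in the same range of counts and 8.19% and 4.47% of all genes with a count. With DESeq2 the same 4 Hox genes rose and none fell, beside 11.5% and 7.9% of all genes tested by it, and with cyclic loess normalization only *Hoxb1* rose and none fell, beside 2.2% and 1.72%. The median shift of the Hox genes was thus close to that of other weakly counted genes.

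**Figure D3:**
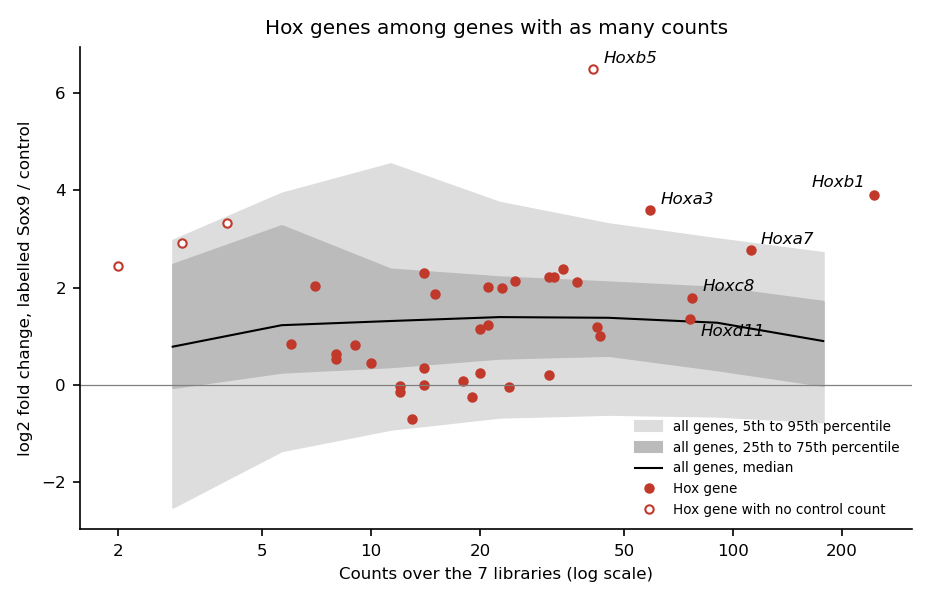
Log2 fold change in the fit without a filter (y axis, labelled Sox9 over control) against the counts over the 7 libraries (x axis, log scale) for the 38 Hox genes in red, with the median (line) and the 25th to 75th and 5th to 95th percentiles (bands) of all genes in 7 bins of counts. *Hoxb1* (3.90) and *Hoxa3* (3.60) lie above the 95th percentile of their bins (2.72 and 3.32), and open circles mark genes without a control count, whose fitted values depend on the prior count.

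For 10 Hox genes every Sox9-labelled library had a higher CPM than every control, and for none was the reverse true. These were *Hoxa3*, *Hoxa5*, *Hoxa7*, *Hoxb1*, *Hoxb2*, *Hoxb5*, *Hoxc8*, *Hoxc9*, *Hoxc10* and *Hoxd11*. The share of Hox genes stands beside 24.1% (higher) and 0.906% (lower) of genes with as many counts in all, and beside 17.3% and 8.56% of all genes with a count. *Hoxa5*, a gene of lung and trunk patterning, had 0, 2 and 3 counts against 4, 10, 8 and 7, a pooled ratio of 5.84 (exact 95% interval 2.24 to 19.3). *Hoxc9* with 5 against 27 counts and *Hoxc10* with 5 against 26, both genes of the lower trunk, had ratios of 5.44 and 5.24.

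The clusters differed in how much of the Hox signal they carried. Cluster A had a mean of 2.24 ± 0.820 CPM in the controls (SD, n = 3) and 9.24 ± 2.15 CPM in the Sox9-labelled libraries (SD, n = 4), a ratio of 4.12. Cluster B went from 1.77 ± 0.5001 to 11.1 ± 3.64 CPM, a ratio of 6.26. Cluster C had 1.27 ± 0.290 and 5.002 ± 1.31 CPM, a ratio of 3.93, and cluster D had 2.55 ± 0.704 and 4.84 ± 1.26 CPM, a ratio of 1.90. In each cluster the groups did not overlap, but in cluster D the highest control (3.36 CPM) and the lowest Sox9-labelled library (3.69 CPM) were close. By its mean, cluster D was the highest of the 4 in the controls and the lowest in the Sox9-labelled libraries, but in Sox9 replicates 1 and 4 it lay above cluster C, and no test of the difference between clusters was made.

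**Figure D4:**
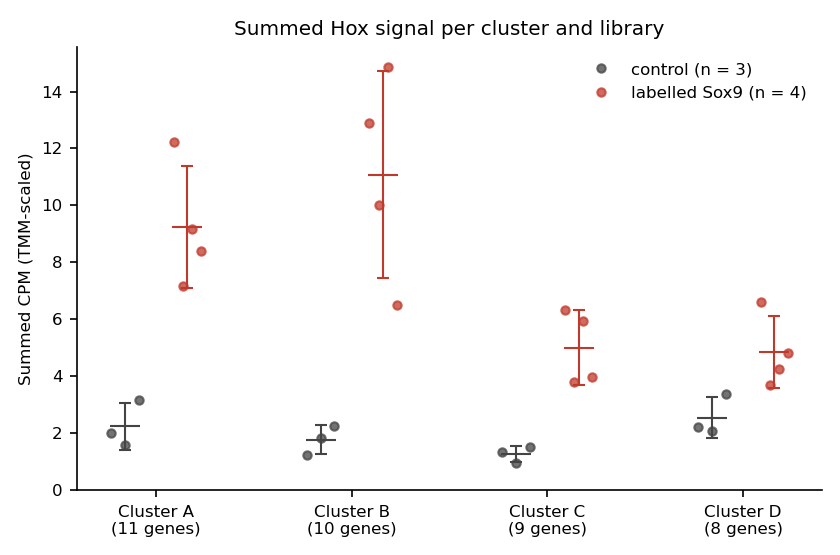
Summed CPM of the Hox genes of each cluster (y axis) by cluster (x axis) in each library, with controls in grey (n = 3), Sox9-labelled libraries in red (n = 4), and means with SD as error bars. The groups are farthest apart in cluster B, with 1.24 to 2.24 CPM in the controls and 6.501 to 14.9 CPM in the Sox9-labelled libraries, and closest in cluster D.

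Much of the signal of cluster B came from *Hoxb1*, which held 25% of the cluster's control counts and 63.7% of its counts in the Sox9-labelled libraries. Without *Hoxb1* the ratio of cluster B was 2.97 and that of all Hox genes was 3.12. *Hoxb1*, *Hoxa3* and *Hoxa7* together held a mean of 12.3% of the Hox counts of a control and 39.8% of those of a Sox9-labelled library. The other 35 genes had sums of 6.83 ± 1.66 CPM in the controls (SD, n = 3) and 18.1 ± 4.03 CPM in the Sox9-labelled libraries (SD, n = 4), a ratio of 2.65.

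Neighbouring genes of a cluster had unlike counts. *Hoxb2*, which is the next gene to *Hoxb1* at a distance of 11740 bases and, like it, a hindbrain gene, had 2 counts in all controls together and 12 in the Sox9-labelled libraries, against 14 and 232 for *Hoxb1*. On either side of *Hoxa7*, *Hoxa6* had 7 and 7 counts and *Hoxa9* had 6 and 31. *Hoxa4*, inside the span of *Hoxa3*, had 6 and 6. None of these neighbours passed the filter.

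Paralogs in different clusters can substitute for one another, and their counts were compared by paralog group. Group 1 had 23 control counts and 246 in the Sox9-labelled libraries, of which *Hoxb1* gave 14 and 232. Groups 3, 5 and 7 went from 12, 5 and 19 counts to 95, 72 and 105. Groups 2, 4 and 6 between them went from 8, 18 and 12 counts to 27, 40 and 23. Groups 8, 9, 10 and 11 went from 33, 33, 27 and 24 counts to 84, 79, 60 and 67. At the posterior end, group 12 had 8 and 23 counts and group 13, the genes of digits, tail and genital region, had 24 and 36. *Hoxd13*, *Hoxd9* and *Hoxb7* had equal raw counts in both groups of libraries (9, 12 and 6), and *Hoxb9* (10 and 9) and *Hoxd10* (8 and 5) had fewer in the Sox9-labelled libraries.

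Other RNAs are transcribed from the clusters. The row of the miRNA gene *Mir10b*, which lies within the annotated spans of *Hoxd3* and *Hoxd4*, had no count in the controls and 5, 6, 6 and 0 in the Sox9-labelled libraries. *Hoxd3* had 4 counts in all controls together and 21 in the Sox9-labelled libraries. Whether the *Mir10b* counts can be separated from *Hoxd3* transcripts was not tested. The rows of *Mir10a*, *Mir196a-1*, *Mir196a-2*, *Mir196b* and *Mir615* were at 0 in all libraries. Such counts come from RNA primed at its poly(A) tail and fragmented, so they are not a measure of the mature miRNA. The mature forms of both miR-10 genes are shown because they share a seed, bases 2 to 8, in capitals, although their rows differ (sequences from RefSeq, GRCm38.p6).

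mmu-miR-10a-5p: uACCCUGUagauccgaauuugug

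mmu-miR-10b-5p: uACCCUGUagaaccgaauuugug

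Of the long non-coding RNAs, *Hoxd3os1*, antisense to *Hoxd3*, had 3, 3 and 4 counts in the controls and 5, 15, 10 and 6 in the Sox9-labelled libraries, with a log2 fold change of 1.79 (SE 0.56, adjusted p = 0.0250 by edgeR's quasi-likelihood test), which missed the threshold. *Hotair*, from cluster C, had 6, 6 and 4 against 8, 5, 4 and 6 counts, and *Hotairm1*, from the 3′ end of cluster A, had 2, 2 and 5 against 6, 12, 6 and 2. Both lists of values overlapped between the groups. *Gm14424*, a non-coding gene of cluster D, had no control count and 4, 4, 2 and 1 in the Sox9-labelled libraries. The pseudogene *Gm11539*, inside cluster B, received more counts than any Hox gene over the 7 libraries together, 47, 67 and 64 against 33, 76, 50 and 31, although *Hoxb1* had more in the Sox9-labelled libraries together (232 against 190) and in replicates 1 and 3 of them. The log2 fold change of *Gm11539* was 0.087 (SE 0.29, adjusted p = 0.844 by the same test).

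Genes that work with Hox proteins or act on the clusters were measured as well. All 9 TALE cofactors (the Pbx, Meis and Pknox genes, whose products bind DNA with Hox proteins) passed the filter and none passed the threshold in either direction, with sums of 821 to 910 CPM in the controls and 644 to 799 CPM in the Sox9-labelled libraries. Of 22 regulators of the clusters, comprising Polycomb and Trithorax subunits, histone demethylases, *Ctcf* and retinoic acid genes, all of them tested, 1 rose and 1 fell, beside 11.3% and 3.43% of all genes tested. *Cyp26b1*, whose product breaks down retinoic acid, had 3, 2 and 2 counts in the controls and 52, 32, 11 and 9 in the others (log2 fold change 3.84, SE 0.71, adjusted p = 0.0018 by edgeR's quasi-likelihood test). *Ezh2*, the methyltransferase of Polycomb complex PRC2, fell from 96.1 ± 5.49 CPM (SD, n = 3) to 68.8 ± 6.45 CPM (SD, n = 4), a log2 fold change of -0.48 (SE 0.12, adjusted p = 0.0094 by the same test). Of the 16 genes flanking the clusters, *Skap1* (log2 fold change 2.13) and *Calcoco2* (2.60), both near cluster B, rose and *Nfe2l2* (-1.89) and *Hnrnpa1* (-0.45) fell, to be read beside the same 2 shares of all genes.

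Other gene groups with little use in cortex were measured on the same scale. Per kilobase of exon, the 8 ParaHox and Evx genes, the nearest relatives of the Hox genes, went from 0.0852 to 0.189 CPM (ratio 2.22), and none passed the filter. The 24 transcription factors of other tissues went from 0.0655 to 0.260 CPM (ratio 3.97), and 5 of the 6 tested rose, among them *Hnf4a*, *Gata1*, *Pax9* and *Tbx20*, genes of the liver, blood, pharynx and heart. The 1372 chemoreceptors, the olfactory, vomeronasal, taste and trace amine receptors, went from 0.0278 to 0.0840 CPM (ratio 3.02), and 13 of the 99 tested rose and none fell. The 107 keratin genes went from 0.161 to 0.378 CPM (ratio 2.35), and 8 of the 11 tested rose. A gene this weak in the controls passes the filter through the group in which it is high, so the tested genes do not stand for their groups. Their counts are to be read beside the 11.3% of all genes tested that rose and the 20.6% of those with an average log2 CPM under 1. In each of these groups every Sox9-labelled library had a higher sum than every control, as for the Hox genes.

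**Figure D5:**
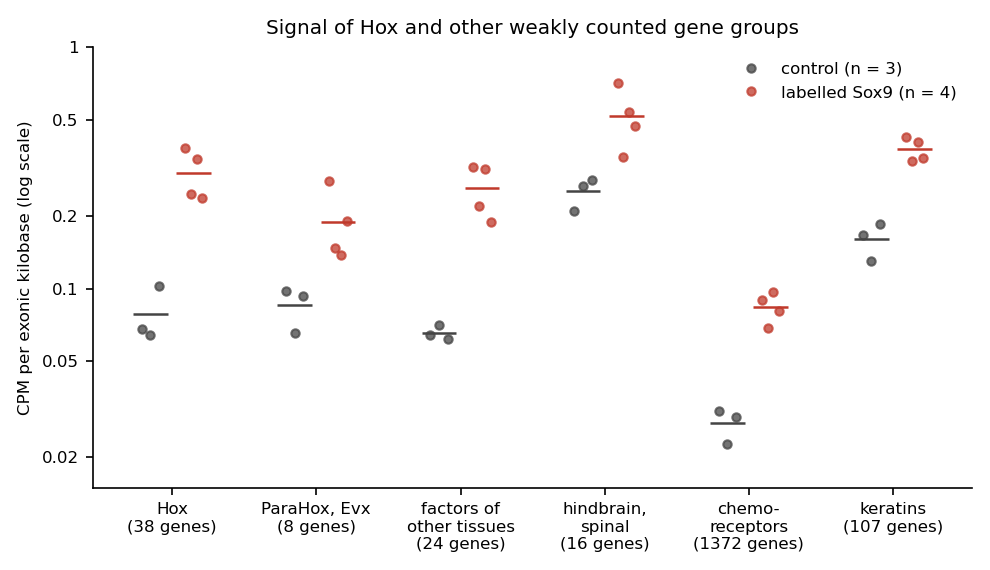
CPM per kilobase of exon (y axis, log scale) of 6 weakly counted gene groups (x axis) in each library, with controls in grey (n = 3), Sox9-labelled libraries in red (n = 4) and horizontal bars at the group means. The Hox genes move from a mean of 0.0784 to 0.302, beside 0.0655 to 0.260 for factors of other tissues and 0.0278 to 0.0840 for chemoreceptors.

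Detection differed between these groups in the same direction. A count was found for 68.4% to 76.3% of the Hox genes in the controls and for 76.3% to 94.7% in the Sox9-labelled libraries, compared with 29.7% to 34.2% and 35.4% to 54.0% of the chemoreceptors. No control count was found for 4 Hox genes and for 592 chemoreceptors.

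Markers of cells in which Hox genes or blood and vessel genes are in use were examined beside the Hox signal. The 16 genes of hindbrain and spinal cord patterning, which would mark neural tissue from behind the forebrain, summed to 11.7 to 15.7 CPM in the controls and 19.5 to 39.4 CPM in the Sox9-labelled libraries, and none of the 10 tested passed the threshold. The 10 endothelial markers summed to 6.12 to 15.6 CPM in the controls and 20.1 to 54.3 CPM in the Sox9-labelled libraries, and 2 of 8 tested, *Flt1* and *Kdr*, rose, while *Cldn5* was at 0 in 3 of the 4 Sox9-labelled libraries. Mural and meningeal markers went from a range of 9.27 to 10.1 to one of 14.4 to 26.5 CPM, with 1 of 6 tested (*Col1a1*) higher. Microglial markers went from a range of 11.4 to 39.0 to one of 23.5 to 72.0 CPM, with 1 of 10 (*C1qa*) higher. Erythroid markers went from a range of 3.15 to 25.5 to one of 17.03 to 95.2 CPM, with 1 of 6 (*Hba-a2*) higher. Of all genes tested 11.3% rose, and of those with an average log2 CPM under 1, 20.6%. The tested endothelial, mural, microglial and erythroid markers with a negative log2 fold change were *Pdgfrb* (-1.03), *Aif1* (-0.48), *Cx3cr1* (-0.27) and *Hbb-y* (-0.87), with adjusted p-values of 0.304 to 0.742 by edgeR's quasi-likelihood test. Among the markers not tested, the mean CPM in the controls and in the Sox9-labelled libraries was 0.293 and 0.186 for *Phox2a*, 0.507 and 0.490 for *Tagln*, and 0.661 and 0.103 for *Hba-x*. The part of such cells in the Hox counts was not tested.

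The deposited FPKM, which 34 of the Hox genes have, set the Hox genes in another order. For all 29 Hox genes with at least 10 counts, the length that links counts and FPKM was within 10% of the whole span of the gene, introns included, and for 4 of them it was also within 10% of the exonic length. *Hoxa3*, with 6014 exonic bases in a span of 44275, thus had FPKM of 0.061, 0.026, 0.044 and 0.046 in the Sox9-labelled libraries, while *Hoxb5*, with fewer counts and a span of 2786, had 0.754, 0.239, 0.790 and 0.162. *Hoxb1* was the highest on this scale in each Sox9-labelled library, but in only 1 of the 3 controls, with 0.103, 0.155 and 0.229 in the controls and 3.89, 2.81, 3.42 and 2.08 in the Sox9-labelled libraries.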

How the data were processed

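High RFP cells gave 7 samples for RNA-Seq, 3 control and 4 labelled Sox9, and groups and replicate numbers follow the sample titles. Each library is a pool of sorted cells and was taken as 1 replicate. The authors reverse-transcribed with poly-dT primers, amplified the cDNA by PCR, trimmed adapters with cutadapt and aligned to mm10. Per the submitters' processing notes, bcl2fastq 2.17.1.14 and STAR 2.5.2b were used. For each Ensembl gene the authors deposited counts without normalization. The FPKM deposited beside them are scaled by length and library reads. The counting program, and whether it used strand, are not given in the sources used here.

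Symbols, coordinates and exonic lengths came from GENCODE vM21 (GRCm38), in which 36345 of the 38124 counted genes were found. Counts were tested with edgeR 4.0.16 (TMM, filterByExpr defaults, quasi-likelihood test, two-sided, no covariate) over 16522 genes, with Benjamini-Hochberg adjustment and a threshold of 0.01. CPM are counts over TMM-scaled library sizes. Pooled ratios have exact conditional binomial intervals at 95%, and the floor for a count of 0 is 3 counts. Detection at the smallest library total is the exact hypergeometric expectation. The fitting script was tested on simulated counts. Alternatives were DESeq2 1.42.0, its size factors in edgeR, library totals alone, cyclic loess with limma 3.58.1, 10 or more counts in every library, no filter, protein-coding genes only, a threshold of 0.05, replicate blocks and leaving out each library. Summaries were computed in Python 3.11.15.

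The Hox genes and comparison lists were chosen with earlier results of these data known. Values in every library were given for Hox genes called at the threshold, the 6 with the highest mean CPM, the leading gene of each cluster and those with no control count but a count in all Sox9-labelled libraries. Genes of other lists were to be named if called, at most 4 a list. Uncalled genes of these lists, such as *Emx1*, *Cldn5* and *Aif1*, were named as well, outside this rule. Values of some genes are not reported here. Other Hox genes were named after their values were seen. Within groups, library pairs differed by 6.63 to 18.0 times the sampling noise (chi-square per degree of freedom), so none was taken for a second copy of another.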

Additional observations from a re-analysis of the deposited data

Results flagged for a closer look

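Of 17 values per library tested for a sample far from the others in the 4 Sox9-labelled libraries, 1 stood out. Cluster D had a count for 8 of its 8 genes in replicates 1, 2 and 4 and for 6 in replicate 3, with *Hoxd1* and *Hoxd13* at 0. For untied values in groups of 4, chance marks about 1 in 20, but this rate does not apply to tied counts that stand at their ceiling of 8 genes.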

How the results depend on the processing

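*Hoxb1* rose in the fit reported and in all 15 alternatives that tested it, with log2 fold changes of 2.65 to 4.27 and adjusted p-values of 6.9e-14 to 0.00278. *Hoxa3* passed the threshold in 12 of 15 alternatives and *Hoxa7* in 11 of 15, with adjusted p-values of up to 0.131 and 0.0799. The number of Hox genes that rose was 1 (*Hoxb1*) with cyclic loess and 1 (*Hoxb1*) with a replicate block by title number (adjusted p = 0.0152 for *Hoxa3* and 0.0221 for *Hoxa7*), 5 at an adjusted p under 0.05, and 2 to 4 when single libraries were left out. With cyclic loess, *Hoxc8* had a log2 fold change of 0.26 (adjusted p = 0.721) and *Hoxd11* turned to -0.078 (adjusted p = 0.929), and the cause was not tested. *Hoxc8* was over 0.05 also with the block by title number (0.0796) and without control replicate 1 (0.0712) or 2 (0.0789). No Hox gene fell under any alternative. With at least 10 counts in every library no Hox gene was left to test. *Sox9* passed the threshold without a filter (-0.78) and without control replicate 1 (-0.99, adjusted p = 0.0028), and leaving out single libraries gave -0.99 to -0.37. The numbers of detected genes changed by construction with more than 3 counts (9.0 and 16.75), after drawing down (18.6 and 29.5) and, over the 34 genes with FPKM, with an FPKM above 0 (30 in the Sox9-labelled libraries). Scaling by library totals alone moved the median log2 fold change of all genes from -0.003 to 0.23. The title numbers did not pair the libraries: deviations of those with the same number correlated at -0.04, 0.12 and -0.005, and not every library correlated best with its own number. A block by description number left 3 Hox genes higher. With 2 to 246 counts per gene over 7 libraries, differences of most single Hox genes were not detectable.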
